A study of Mus musculus with 9 samples.

Results

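Aminoacyl-tRNA synthetases were followed here as a set of 36 listed genes out of 24060 in the expression table: 20 cytosolic enzymes and 16 mitochondrial ones, the latter recognised by a gene name that ends in 2. All 36 were expressed above the filter of the test, which was passed by 11330 genes. The set was chosen by name and not by level or change.

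The RNA came from activated CD8 T cells of 3 transnuclear mouse lines (R7-I, R7-II, R7-III), with 3 libraries per clone labelled as biological replicates. Each line descends from the nucleus of 1 T cell, and carries the rearranged T cell receptor genes of that cell, and all 3 receptors recognise the same ROP7 peptide of Toxoplasma gondii on H-2Ld. According to the series' design text the affinity for the peptide falls from R7-I over R7-III to R7-II, and the question was how the activated clones differ. In all 3 groups splenocytes of Rag2-proficient BALB/c mice, which can form other lymphocytes too, had been cultured overnight in 10 ng/ml IL-2 with the ROP7 peptide at 10 µM before CD3+ CD8+ cells that bound the ROP7 tetramer were sorted, so that every group was peptide-activated; unstimulated cells were not analysed here. The clones differ in receptor sequence, self-reactivity and founder nucleus together with affinity, and these cannot be told apart with 1 line per affinity.

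An aminoacyl-tRNA synthetase joins 1 amino acid to the tRNAs that carry its codons, using ATP, and so supplies ribosomes with charged tRNAs. Cytosolic and mitochondrial protein synthesis mostly use separate enzymes from separate nuclear genes, although glycyl-tRNA synthetase (Gars) and lysyl-tRNA synthetase (Kars) serve both compartments. Activated T cells enlarge and raise protein synthesis, and several cytosolic synthetase genes are known targets of the transcription factor ATF4, which acts in the amino acid response.

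The sequences just upstream of or at the transcription start are shown for the 6 cytosolic members whose window holds a motif searched, and for Qars, the cytosolic member that was higher in TPM in R7-II. They are RefSeq sequences on GRCm38.p6, written 5′ to 3′ on the strand of the gene. The starts used for Aars and Yars lie inside the annotated spans of these genes, which begin further upstream at chr8:111027778 and chr4:129189734. Capitals mark TTGCATCA or TGATGNAA, both forms of the element bound by ATF4 with C/EBP partners, and CACGTG, the E-box read by Myc and related factors. The 60 bases for Aars begin 150 bases before the start at chr8:111033692-111033751 (+), those for Gars (chr6:55037941-55038000, +), Tars (chr15:11399659-11399718, −), Farsb (chr1:78488898-78488957, −) and Qars (chr9:108507945-108508004, +) end at the last base before it, and the 30 bases for Iars (chr13:49682130-49682159, +) and Yars (chr4:129189894-129189923, +) reach into the first exon.
Aars: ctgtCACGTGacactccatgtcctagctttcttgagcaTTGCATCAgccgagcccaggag
Gars: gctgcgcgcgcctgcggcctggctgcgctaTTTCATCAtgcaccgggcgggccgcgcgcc
Tars: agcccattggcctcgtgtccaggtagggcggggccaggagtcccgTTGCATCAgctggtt
Farsb: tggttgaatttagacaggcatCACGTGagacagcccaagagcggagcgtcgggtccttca
Iars: gtcagtaTTGCATCAcctccagacgcggaa
Yars: gacgagctcagcTGATGCAAcccgacggga
Qars: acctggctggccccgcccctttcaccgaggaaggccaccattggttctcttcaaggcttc

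Promoter windows from 250 bases before to 50 bases after the start were matched for 27 of the 36 members, 13 cytosolic and 14 mitochondrial. TTGCATCA, on either strand, was in the windows of 4 cytosolic members (30.8%), Aars, Iars, Tars and Yars, in none of the 14 mitochondrial windows, and in 1.03% of the 27025 gene windows. The looser TGATGNAA, which includes the first motif, added Gars for 5 of 13 (38.5%), against 0 of 14 mitochondrial windows and 4.51% of all windows. CACGTG was in the windows of Aars, Farsb, Iars and Tars (30.8% of the cytosolic windows) and of Ears2 (7.14% of the mitochondrial ones), against 8.09% of all. Qars was not the only cytosolic member without a match. No motif searched was in the windows of Eprs, Kars, Mars and Farsa, which passed as lower in R7-II in both comparisons below, or in those of Dars and Sars. Like that of Aars, the windows of Eprs, Aars2, Nars2, Tars2 and Wars2 do not reach the upstream end of the annotated gene span. Sequence at that end was not searched in these genes. These motifs were searched after the fold changes had been seen, and a match says only that the letters are present.

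Levels are given as TPM, the share of a gene among all transcripts after correction for transcript length, so genes can be set side by side on this scale. The cytosolic enzymes were the more abundant: their means over the 9 libraries ran from 118 TPM for Cars to 431 TPM for Gars with a median of 200 TPM. Mitochondrial members ran from 8.39 TPM for Ears2 to 68.4 TPM for Tars2 with a median of 21.9 TPM, so that the most abundant mitochondrial enzyme lay below the least abundant cytosolic one. After Gars, the highest means were those of Nars at 399.9 TPM, Kars at 369 TPM, Iars at 264 TPM and Eprs, the fused glutamyl- and prolyl-tRNA synthetase, at 259 TPM. Spread between libraries of 1 clone was small for cytosolic members, with a median coefficient of variation of 2.07%, and larger for mitochondrial ones, at 5.44%. Lars2, the mitochondrial leucyl enzyme, was the most variable at 33.4% in R7-I.

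Cytosolic synthetase RNA made up a smaller share of the R7-II libraries than of those of either other clone. The 20 cytosolic genes summed to 4064 ± 79.2 TPM in R7-II (SD, n = 3), while R7-I had 4664 ± 72.6 TPM and R7-III 4565 ± 19.9 TPM. All 3 R7-II sums, from 3972 to 4111 TPM, lay below the lowest of the other 6 libraries, 4546 TPM. The mitochondrial sums were 477 ± 14.5 TPM for R7-II, 495 ± 27.8 TPM for R7-I and 503 ± 6.79 TPM for R7-III, with R7-II overlapping R7-I. The ratio of the cytosolic to the mitochondrial sum was 8.52 ± 0.0960 in R7-II, 9.44 ± 0.623 in R7-I and 9.08 ± 0.0980 in R7-III. Without Lars2 the ratios were 9.62, 10.9 and 10.1. In bulk RNA, fewer cells that express a gene and less RNA per cell cannot be told apart. TPM is a share, so the amount of this RNA per cell was not measured.

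Tested gene by gene against R7-I, 16 of the 20 cytosolic synthetases were lower in R7-II, 1 was higher and 3 did not pass (limma across all 11330 genes, Benjamini-Hochberg adjusted p under 0.01). Over all genes tested, 15.5% were lower and 40.6% higher in that comparison, 56.1% in all. Against R7-III, 14 cytosolic members were lower, 1 was higher and 5 did not pass, where 18.0% of all genes were lower and 35.6% higher, 53.6% in all. The median log2 fold change of the cytosolic members on the log2(TPM + 1) scale was −0.22 relative to R7-I and −0.18 relative to R7-III, beside 0.17 and 0.12 for all genes. When libraries were scaled by the median of gene ratios, which brought the all-gene medians to 0.0084 and 0.0042, the cytosolic medians were −0.40 and −0.31, with 18 lower and none higher against R7-I and 17 lower and none higher against R7-III. That scaling also changed the calls over all genes against R7-I from 4604 higher and 1754 lower to 2949 higher and 3230 lower, and against R7-III from 4038 higher and 2039 lower to 2896 higher and 3150 lower. The 2 comparisons share the R7-II libraries and are not independent.

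Defining T cell genes were high in all libraries: the summed level of 8 CD8 T cell markers was 2036 to 2114 TPM for R7-I, 2888 to 3005 for R7-II and 2095 to 2238 for R7-III. Markers of other cells were low but moved with the clone. The summed level of 9 B cell markers was 36.1 to 72.8 TPM in R7-II, while R7-I had 9.5 to 16.2 TPM and R7-III 5.8 to 8.89 TPM, and all 8 tested passed as higher in R7-II each time. For 7 MHC class II genes it was, in the same order, 115 to 186 TPM, 33.0 to 50.4 TPM and 25.0 to 29.2 TPM, with 7 of 7 higher in both. For 11 myeloid markers it was 22.8 to 88.9 TPM, 2.41 to 3.99 TPM and 3.51 to 5.45 TPM, with 7 and 8 of 10 tested higher and Cd14 at 0 in R7-I. The natural killer sums were at most 0.17 TPM, with Klra8 and Klra4 at 0 in all libraries. CD4 T cell sums lay between 3.36 and 8.01 TPM, and erythroid sums were 22.1 to 73.3 TPM for R7-I, 1.3 to 15.1 for R7-II and 8.99 to 25.5 for R7-III. The part of other cells in the synthetase differences was not tested.

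**Figure D1:**
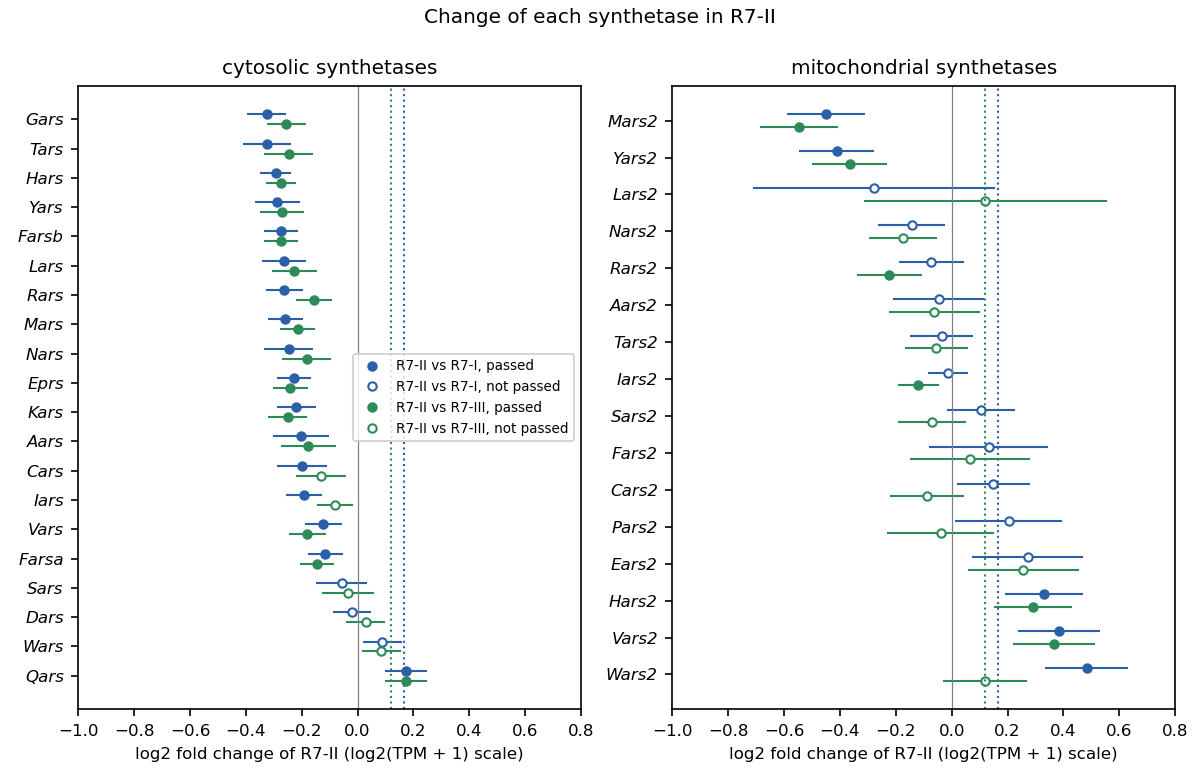
Log2 fold change of each synthetase in R7-II against R7-I (blue) and against R7-III (green) on the log2(TPM + 1) scale, cytosolic members on the left and mitochondrial members on the right; bars are 95% confidence intervals, filled points passed an adjusted p of 0.01 and dotted lines are the medians of all 11330 genes. All cytosolic points except Qars lie left of both dotted lines, with 16 filled points below 0 against R7-I, whereas the mitochondrial points spread from −0.45 to 0.48 against R7-I.

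Gars, which charges glycine in both compartments, had the largest fall among the cytosolic members against R7-I; against R7-III Hars, Farsb and Yars fell more. Its level was 484, 451 and 476 TPM in the R7-I libraries, 381, 365 and 378 TPM in R7-II, and 439, 455 and 449 TPM in R7-III. Every R7-II library was below every other one, and the R7-II mean was 20.3% below that of R7-I. The log2 fold change was −0.33 (SE 0.0317, adjusted p = 7.55e-06 in limma) against R7-I and −0.26 (adjusted p = 4.52e-05) against R7-III.

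Tars, the threonyl enzyme, had 220, 210 and 202 TPM for R7-I, 170, 162 and 172 for R7-II and 206, 201 and 193 for R7-III. The R7-II mean was 20.2% below that of R7-I, and every R7-II library was below every other one, while R7-I and R7-III overlapped. In limma the log2 fold change was −0.32 against R7-I (SE 0.0392, adjusted p = 3.63e-05) and −0.25 against R7-III (adjusted p = 0.000258).

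Hars, the histidyl enzyme, had the smallest standard error of the cytosolic members. It stood at 203, 198 and 201 TPM for R7-I, at 163, 163 and 164 for R7-II and at 196, 197 and 200.3 for R7-III. The R7-II mean was 18.5% below that of R7-I, a log2 fold change of −0.29 (SE 0.0247, limma adjusted p = 2.85e-06), and −0.27 against R7-III.

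Yars, the tyrosyl enzyme, had 149.5, 146 and 144 TPM for R7-I, 119, 115 and 125 for R7-II and 144, 146 and 144 for R7-III. Farsb, the beta subunit of the phenylalanyl enzyme, had 179, 173 and 173 TPM for R7-I, 146, 142 and 146 for R7-II and 174, 175 and 176 for R7-III. Lars, the leucyl enzyme that also senses leucine for mTORC1, had 205, 193 and 199.5 TPM for R7-I, 170, 158 and 169.8 for R7-II and 196, 195 and 192 for R7-III. In all 3 genes every R7-II library was the lower, by 18.1%, 17.4% and 16.7% of the R7-I mean. Their log2 fold changes against R7-I were −0.29, −0.27 and −0.26 and those against R7-III −0.27, −0.27 and −0.23, each with an adjusted p of 0.000254 or less in limma.

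The other 10 cytosolic members that were lower than in R7-I were Rars, Mars, Nars, Eprs, Kars, Aars, Cars, Iars, Vars and Farsa, from −0.26 for Rars to −0.12 for Farsa on the log2 scale. Of these, Cars (−0.13) and Iars (−0.08) did not pass against R7-III. The smaller changes sat near the threshold: Farsa lost its call relative to R7-I without R7-I replicate 1 or 2 or R7-II replicate 3 (adjusted p up to 0.0154), and Vars without R7-I replicate 2 or 3 or R7-II replicate 1 (up to 0.0169). Aars lost its call relative to R7-I without R7-I replicate 1 (0.0113), and that relative to R7-III without R7-II replicate 2 or any 1 R7-III library (up to 0.025). Some RNA cannot be assigned with certainty, since 23.1% of the exonic bases of Aars overlap Exosc6 on the same strand. The reads carried no strand, and 11.3% of the exonic bases of Farsb overlap Sgpp2 and 2.29% of those of Mars overlap Ddit3 on the other strand.

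The multisynthetase complex is an assembly that holds part of the cytosolic enzymes on scaffold proteins. Of its 8 enzymes 6 were lower in R7-II than in R7-I, 1 was higher and 1 did not pass, and of the 12 enzymes outside it 10 were lower and 2 did not pass. The medians were −0.22 inside and −0.22 outside. By the fold of the catalytic domain, 7 of 9 class I and 8 of 10 class II cytosolic enzymes were lower, Eprs holding both classes. Without Gars and Kars, which also serve mitochondria, 14 of 18 were lower. Of all genes tested, 15.5% were lower and 40.6% higher in this comparison. Relative to R7-III, 5 of the 8 enzymes of the complex were lower and 1 higher, and 9 of the 12 outside it were lower. There 18.0% of all genes were lower and 35.6% higher. Median-of-ratios scaling gave 7 of 8 and 11 of 12 lower relative to R7-I, where 3230 of all 11330 genes were lower.

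Qars, the glutaminyl enzyme, was the 1 cytosolic member that rose in TPM, a call that another scaling did not give. It had 144, 146 and 146 TPM for R7-I, 163, 168 and 162 for R7-II and 146, 139 and 151 for R7-III. Each R7-II library exceeded the other 6, and the log2 fold change was 0.17 against each clone (SE 0.0336, limma adjusted p = 0.000979 and 0.001). The call was not kept relative to the all-gene median: under median-of-ratios scaling the value against R7-I was −0.0026 (adjusted p = 0.955) and that against R7-III 0.05 (adjusted p = 0.273).

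Wars, the tryptophanyl enzyme that interferon gamma induces, had 151, 144 and 155 TPM for R7-I, 157, 162 and 159 for R7-II and 149.9, 152 and 149 for R7-III. Its R7-II libraries were the highest 3 of 9, but the log2 fold changes of 0.09 and 0.08 did not pass (adjusted p = 0.027 and 0.0329 in limma). Sars and Dars, the seryl and aspartyl enzymes, overlapped between clones in TPM, with log2 fold changes against R7-I of −0.06 (95% confidence interval −0.15 to 0.03) and −0.02 (−0.09 to 0.05). The results for Wars, Sars and Dars depended on scaling. Under median-of-ratios scaling Sars (−0.23) and Dars (−0.20) passed as lower than in R7-I. Relative to R7-III, Sars (−0.16) passed as lower and Dars (−0.10) did not. Wars changed sign under that scaling, with −0.09 relative to R7-I and −0.04 relative to R7-III, and passed in neither. Counted in TPM, R7-II lay wholly below the other 6 libraries in 16 cytosolic members and wholly above in 2, Qars and Wars. Of all genes tested 17.4% lay wholly below and 41.7% wholly above.

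**Figure D2:**
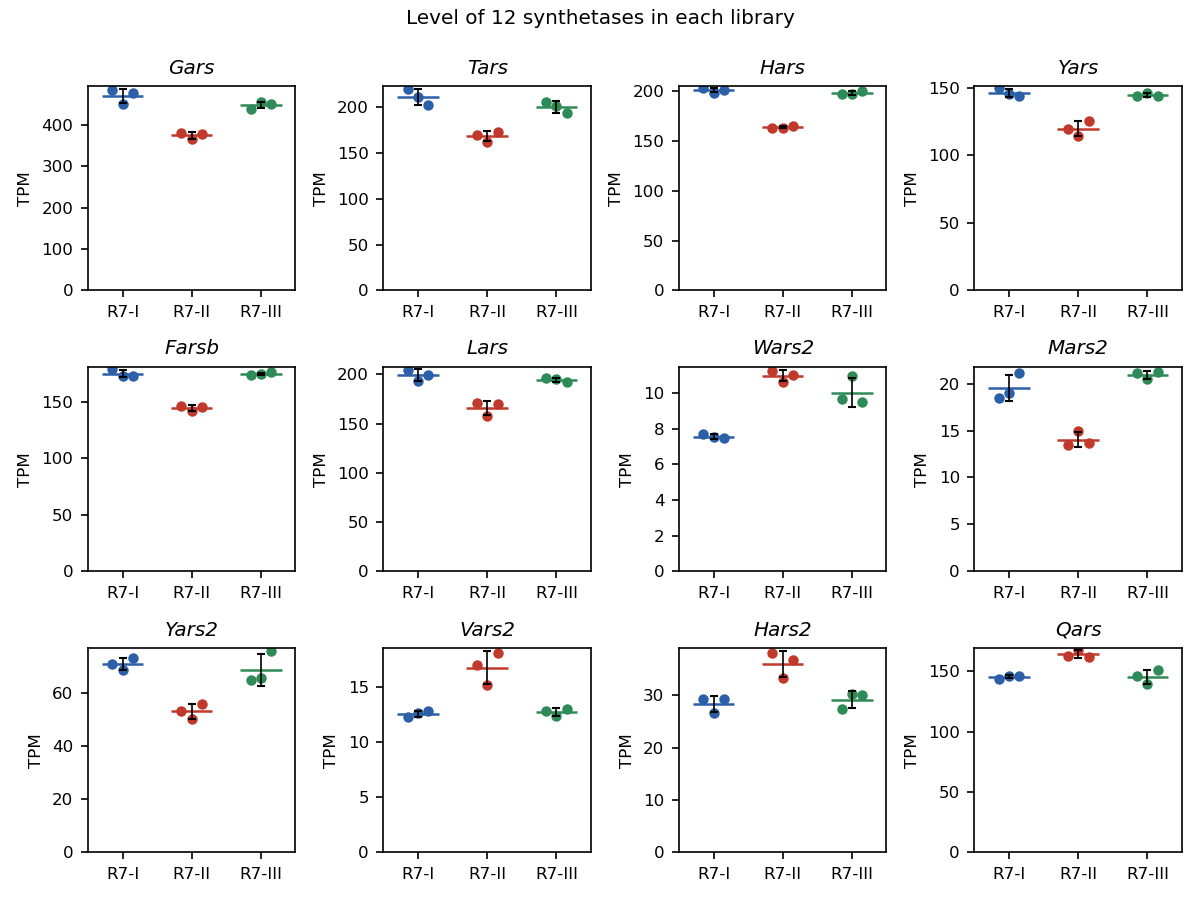
Level in TPM of 12 synthetases in each library of the 3 clones, with points for libraries, lines for means and bars for the SD (n = 3); every axis starts at 0. R7-II is the lowest group in the 6 cytosolic members from Gars to Lars and in Mars2 and Yars2, and the highest in Qars, Hars2 and Vars2; in Wars2 R7-I is the low group at 7.46 to 7.71 TPM.

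Mitochondrial members did not move in 1 direction. Against R7-I, 2 of 16 were lower, 3 were higher and 11 did not pass, with a median log2 fold change of 0.05, where 15.5% of all genes were lower and 40.6% higher. Against R7-III, 4 were lower, 2 were higher and 10 did not pass, with a median of −0.06, where 18.0% of all genes were lower and 35.6% higher. The sign and the calls depended on scaling: with median-of-ratios scaling the medians were −0.13 and −0.18, with 6 lower and 2 higher against R7-I and 8 lower and 1 higher against R7-III. Under that scaling 3230 of all 11330 genes were lower and 2949 higher against R7-I, and 3150 lower and 2896 higher against R7-III. R7-II lay wholly below the other 6 libraries in 3 of the 16, Mars2, Yars2 and Nars2, and wholly above in 2, Hars2 and Vars2, beside 17.4% and 41.7% of all genes. Whether the mitochondrial members differ from the cytosolic ones as a group was not tested.

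Mars2, the mitochondrial methionyl enzyme, had 18.4, 19.0 and 21.1 TPM for R7-I, 13.4, 15.0 and 13.7 for R7-II and 21.2, 20.4 and 21.2 for R7-III. Yars2, the tyrosyl one, had 70.9, 68.7 and 73.0 TPM for R7-I, 53.0, 50.2 and 55.9 for R7-II and 65.0, 65.5 and 75.6 for R7-III. Both were lower in every R7-II library, and their falls were larger than that of any cytosolic member. In limma Mars2 had log2 fold changes of −0.45 (SE 0.0630, adjusted p = 0.000102) relative to R7-I and −0.55 (adjusted p = 2.69e-05) relative to R7-III. For Yars2 they were −0.41 (SE 0.0608, adjusted p = 0.000145) and −0.36 (adjusted p = 0.000364).

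Hars2, the mitochondrial histidyl enzyme, whose gene lies head to head with Hars, had 29.2, 26.7 and 29.3 TPM for R7-I, 38.0, 33.3 and 36.7 for R7-II and 27.3, 30.2 and 30.1 for R7-III. Vars2, the valyl one, had 12.3, 12.6 and 12.8 TPM for R7-I, 17.0, 15.1 and 18.0 for R7-II and 12.8, 12.3 and 13.0 for R7-III. The R7-II libraries of both genes were above all others. Log2 fold changes in limma against R7-I and R7-III were 0.33 (SE 0.0631, adjusted p = 0.000845) and 0.29 (adjusted p = 0.00199) for Hars2. For Vars2 they were 0.38 (SE 0.0662, adjusted p = 0.000433) and 0.37 (adjusted p = 0.000619). The Hars2 calls were lost under median-of-ratios scaling (0.16, adjusted p = 0.0229, and 0.17, adjusted p = 0.0182), and those of both genes under quantile normalization, with adjusted p from 0.0138 to 0.115; without R7-III replicate 1 the Hars2 call against R7-III was lost too (adjusted p = 0.0107). Exonic overlap on the opposite strand covers 5.85% of Hars2 (with Hars) and 6.69% of Vars2 (with an antisense gene).

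Wars2, the mitochondrial tryptophanyl enzyme, set R7-I apart and not R7-II. It had 7.71, 7.52 and 7.46 TPM for R7-I, 11.25, 10.65 and 11.02 for R7-II and 9.66, 10.97 and 9.48 for R7-III. R7-II and R7-III overlapped (log2 fold change 0.12, adjusted p = 0.138 in limma). Against R7-I the fold change was 0.48 in R7-II (SE 0.0673, adjusted p = 9.71e-05) and 0.36 in R7-III (adjusted p = 0.00443). Both calls were lost under quantile normalization (0.16, adjusted p = 0.0449, and 0.24, adjusted p = 0.0309). The R7-III call was also lost with no filter beyond a TPM above 0 (adjusted p = 0.0119 in limma), with the replicate number as a block (adjusted p = 0.0125), and without any 1 of the R7-I libraries or without the first or second R7-III library (0.014 to 0.0213 after adjustment).

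Against R7-III alone, Rars2 (−0.22, adjusted p = 0.00356 in limma) and Iars2 (−0.12, adjusted p = 0.00789) were also lower in R7-II, with values of −0.07 and −0.01 against R7-I. The Rars2 call was lost without R7-II replicate 1 or 2 or R7-III replicate 1 or 3 (adjusted p = 0.0119 to 0.0164), and the Iars2 call without any single library of the 9 (adjusted p = 0.01 to 0.0247); 30.5% of the exonic bases of Iars2 overlap Rab3gap2 on the other strand. Lars2 had 48.5, 63.4 and 93.3 TPM for R7-I, 58.0, 53.0 and 52.0 for R7-II and 51.4, 58.8 and 40.9 for R7-III, and no comparison passed. Its 95% confidence interval against R7-I ran from −0.71 to 0.16. The remaining Nars2, Aars2, Tars2, Sars2, Fars2, Cars2, Pars2 and Ears2 passed in no comparison, with log2 fold changes against R7-I from −0.14 for Nars2 to 0.27 for Ears2.

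Between R7-III and R7-I, the clones of higher affinity, no cytosolic synthetase passed in limma, and Wars2 was the 1 mitochondrial member that did, where 6.96% of all genes were higher and 1.45% lower in R7-III, 8.41% in all. At an unadjusted p under 0.05 there were 3 cytosolic members, Iars, Rars and Gars, all lower in R7-III, and 6 mitochondrial members, all higher. The share of all genes at that looser cut was not taken, so these counts cannot be set against the shares above. The cytosolic median was −0.02 and the mitochondrial median 0.05, beside 0.04 for all genes. Iars (−0.11, adjusted p = 0.0244) and Rars (−0.11, adjusted p = 0.0299) passed under median-of-ratios scaling. A miss of the threshold does not show that the clones were alike: the intervals were −0.17 to −0.05 for Iars and −0.14 to 0.00 for Gars.

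For the 12 members given by library, the exact two-sided permutation p of 3 R7-II libraries against all 6 others was 0.0238, the smallest that 3 against 6 allows, in all but Wars2, where the exact p was 0.0476. A comparison of 3 against 3 libraries cannot go below an exact p of 0.1. The members had been named for their fold changes in the same libraries, so these values describe separation and add no independent evidence.

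For 13 amino acids both enzymes were in the set, and the log2 level of the cytosolic minus that of the mitochondrial enzyme was taken within each library, which cancels any scaling of the library apart from the added 1 TPM. This difference was 2.15 ± 0.0927 (SD, n = 3) for histidine in R7-II, against 2.78 ± 0.0605 in R7-I and 2.72 ± 0.0714 in R7-III. For valine it was 3.61 ± 0.122 in R7-II, 4.11 ± 0.0401 in R7-I and 4.15 ± 0.0367 in R7-III. For threonine it was 1.32 ± 0.0325, 1.61 ± 0.0741 and 1.51 ± 0.0636. In these 3 amino acids all R7-II libraries lay below the other 6.

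For tyrosine, whose enzymes both fell, the difference was above the others in R7-II, at 1.16 ± 0.0115 against 1.04 ± 0.0595 in R7-I and 1.07 ± 0.130 in R7-III. In the other 9 pairs R7-II lay neither wholly below nor wholly above the other 6 libraries. For tryptophan the low value was shared by R7-II (3.74) and R7-III (3.78) against 4.14 in R7-I. R7-II and R7-III also both had lower means than R7-I for cysteine (2.03 and 2.07 against 2.38) and arginine (1.93 and 1.87 against 2.12). The same held for isoleucine (2.36 and 2.32 against 2.53) and serine (2.43 and 2.40 against 2.60). The change against R7-I was negative in 10 of 13 pairs with a median of −0.18, and that against R7-III in 8 of 13 with a median of −0.04. The differences are a description and were not tested.

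**Figure D3:**
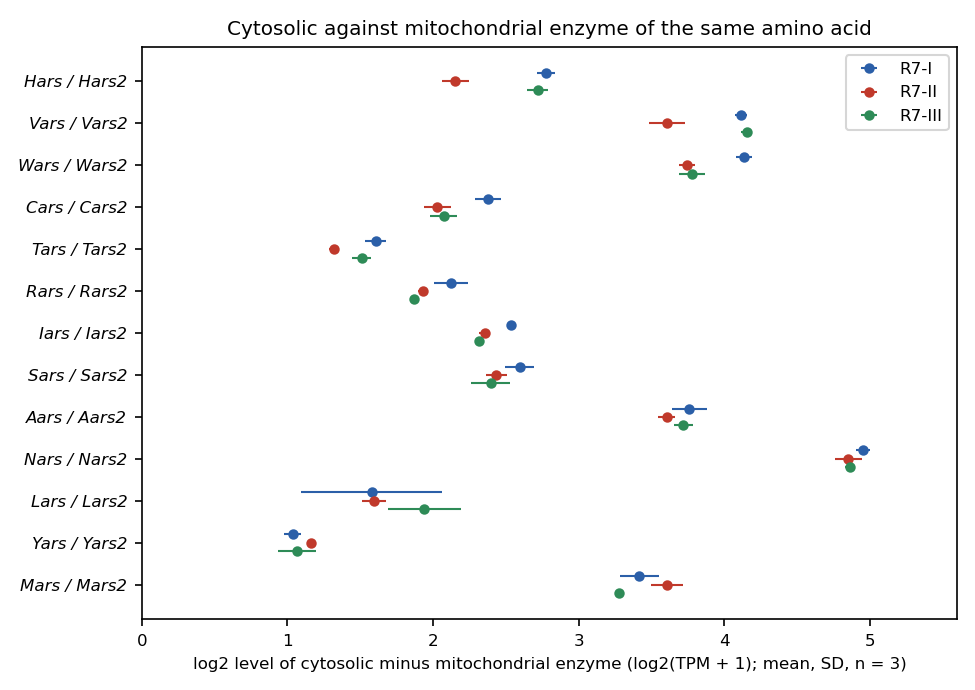
Log2 level of the cytosolic minus the mitochondrial enzyme for 13 amino acids, mean and SD of the 3 libraries of each clone, on the log2(TPM + 1) scale. All R7-II libraries lie to the left of the other clones for histidine, valine and threonine and to the right for tyrosine. In the other 9 pairs R7-II lies neither wholly below nor wholly above the other 6 libraries, though other clones can stand apart. An example is R7-I for tryptophan and isoleucine.

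Of the 3 scaffold proteins of the multisynthetase complex, Aimp2 and Eef1e1 were lower in R7-II and Aimp1 did not pass (−0.10, adjusted p = 0.0276 in limma). Eef1e1 had 255 ± 5.73 TPM for R7-I, 154 ± 2.51 for R7-II and 219 ± 3.52 for R7-III. Its log2 fold change against R7-I, −0.72 (adjusted p = 2.79e-08), exceeded that of any synthetase, and it was also lower in R7-III than in R7-I (−0.21, adjusted p = 0.000672). Aimp2 had 172 ± 7.94 TPM, 130.2 ± 0.257 TPM and 159.8 ± 0.544 TPM, with log2 fold changes of −0.40 and −0.29 in the same order.

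A further 7 genes act in charging a tRNA or in converting an already charged one. Of these 1, Sepsecs, which makes selenocysteinyl-tRNA, was lower in R7-II relative to R7-I, and 6 did not pass. None passed relative to R7-III. Median-of-ratios scaling gave 2 lower relative to R7-I and 1 relative to R7-III. Over all genes tested, 15.5% were lower relative to R7-I and 18.0% relative to R7-III, with 40.6% and 35.6% higher. Sepsecs was 18.1 ± 0.526 TPM for R7-I, 11.8 ± 1.61 for R7-II and 12.04 ± 0.955 for R7-III, so that R7-I stood apart (log2 fold change of R7-II relative to R7-I −0.59, adjusted p = 0.000192 in limma, and of R7-III −0.56, adjusted p = 0.00229). Of 6 editing and deacylating enzymes, which remove wrong amino acids or free stalled peptidyl-tRNA, 1 was higher (Prorsd1, 0.36) and 1 lower (Aarsd1, −0.14) against R7-I, and 1 higher and 2 lower against R7-III. Under median-of-ratios scaling none was higher and 3 were lower in each comparison, so that the Prorsd1 call was not kept.

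All 4 mitochondrial elongation factors were lower in R7-II than in R7-III, and 3 of 4 were lower than in R7-I. Median-of-ratios scaling gave 4 of 4 lower in both comparisons. Among all genes tested, 15.5% were lower and 40.6% higher against R7-I, and 18.0% were lower and 35.6% higher against R7-III. Tufm, which brings charged tRNA to the mitochondrial ribosome, was 296 ± 10.7 TPM for R7-I, 239 ± 3.68 for R7-II and 281 ± 5.94 for R7-III (−0.31 and −0.23 on the log2 scale). Gfm1, the translocase, changed by −0.32 and −0.24. Of 5 cytosolic elongation factors 1, Eef1d, was lower than in R7-I (−0.36, adjusted p = 1.37e-06 in limma), while Eef1a1, at 14945 TPM for R7-I and 14453 TPM for R7-II, did not pass (−0.05, adjusted p = 0.112). Against R7-III 1 was higher and 2 were lower, the higher one being Eef1a1, which stood at 12698 TPM in R7-III (0.19, adjusted p = 8.21e-05 in limma). With median-of-ratios scaling all 5 were lower against R7-I, and 3 were lower and none higher against R7-III.

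On the tRNA side, 3 of 10 maturation and export genes were lower against R7-I, among them Trnt1, which adds the CCA end (−0.23), and Xpot, the tRNA exporter (−0.18), and 1 was higher; with median-of-ratios scaling 6 were lower and none higher. Of all 11330 genes tested, 40.6% were higher and 15.5% lower against R7-I. With median-of-ratios scaling 2949 of them were higher and 3230 lower. Of 13 RNA polymerase III genes, 4 were higher and 2 lower against R7-I, and 3 were higher and 7 lower under median-of-ratios scaling. The largest change was in Maf1, the repressor of this polymerase, at 60.7 ± 3.94 TPM for R7-I, 121 ± 9.39 for R7-II and 65.2 ± 2.76 for R7-III (0.98 and 0.87 on the log2 scale, adjusted p = 4.90e-07 and 9.38e-07 in limma). The polymerase list had a median of −0.02 relative to R7-I and of 0.07 relative to R7-III, and under median-of-ratios scaling these were −0.20 and −0.05.

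Of 18 genes of the amino acid response, 7 were lower and 1 was higher against R7-I, where 15.5% of all genes were lower and 40.6% higher. Against R7-III 9 were lower and 1 was higher, where 18.0% of all genes were lower and 35.6% higher. Median-of-ratios scaling gave 10 lower and 1 higher against R7-I, and 9 lower and 1 higher against R7-III. Atf4 itself was 782 ± 31.0 TPM for R7-I, 725 ± 25.0 for R7-II and 800.0 ± 13.6 for R7-III; the difference from R7-I missed the threshold (−0.11, adjusted p = 0.0164 in limma) and Atf4 passed against R7-III (−0.14, adjusted p = 0.0041). Psat1, an enzyme of serine synthesis, had the largest fall against R7-I, from 434 ± 25.7 TPM (R7-I) or 437 ± 1.38 TPM (R7-III) to 241 ± 12.4 TPM in R7-II (−0.85 and −0.86). Against R7-III the largest fall was in Asns, asparagine synthetase, which was named after its values were seen, with 96.2 ± 10.8 TPM for R7-I, 76.3 ± 5.14 for R7-II and 141 ± 16.6 for R7-III (−0.33, adjusted p = 0.00991 in limma, and −0.87, adjusted p = 1.79e-05). Phgdh, the first enzyme of that pathway, changed by −0.51 and −0.32, and Shmt2 by −0.23 and −0.22. The gene that rose was Ddit3, a stress-induced partner of C/EBP factors that was likewise named afterwards, at 24.7 ± 1.48 TPM for R7-I, 44.6 ± 8.61 for R7-II and 23.5 ± 1.31 for R7-III.

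In 10 interferon gamma response genes, set beside Wars, 4 passed as higher and none as lower relative to R7-I, and against R7-III 2 were higher and 1 lower, where 40.6% and 35.6% of all genes were higher. With median-of-ratios scaling the counts were 2 higher and 1 lower, then 2 and 2. Gbp2 rose most, by 1.16 and 0.99 on the log2 scale. The list's median of 0.13 against R7-I turned to −0.05 under median-of-ratios scaling.

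**Figure D4:**
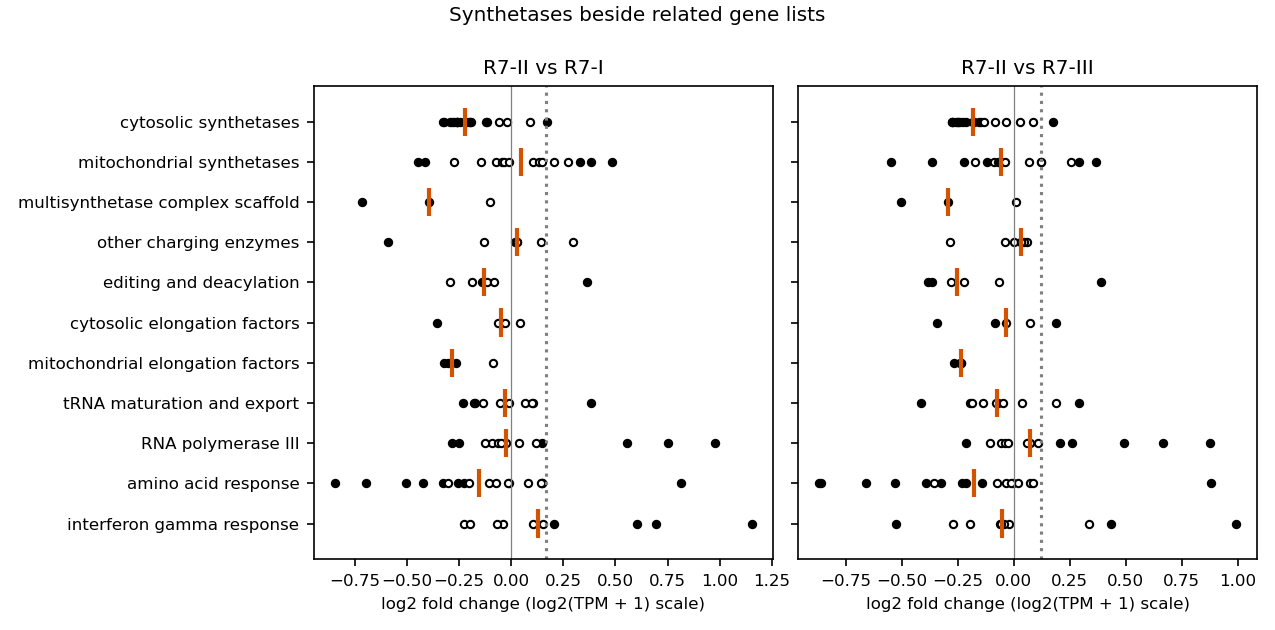
Log2 fold change of every tested synthetase and of every tested gene of 9 related lists, from the complex scaffold to the interferon gamma response, in R7-II against R7-I (left) and R7-III (right) on the log2(TPM + 1) scale; filled points passed an adjusted p of 0.01, orange bars are list medians and dotted lines are the medians of all genes. The cytosolic synthetases lie mostly below 0 around medians of −0.22 and −0.18. Qars (0.17 in each) and Wars (0.09 and 0.08) lie above 0 in both panels, and Dars (0.03) does so against R7-III. Among the lists drawn the amino acid response genes reach furthest below 0, down to −0.85 and −0.87.

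As a description of pattern, the 5 genes whose levels over the 9 libraries were most alike to the mean standardized profile of the cytosolic synthetases were Mthfd2 (Pearson r = 0.988), Amd1 (0.986), Srsf2 (0.985), Ptges3 (0.985) and Hsp90aa1 (0.982), among 11294 genes ranked. Mthfd2, a mitochondrial folate enzyme, stood at 311 ± 16.1 TPM for R7-I, 192 ± 9.17 for R7-II and 278 ± 8.31 for R7-III. The 9 points share their libraries and fall into clone groups.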

How the data were processed

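RNA of sorted, ROP7 peptide-activated CD8 T cells was sequenced in 9 poly(A) libraries, 3 per clone. The authors quantified reads, which carried no strand, with RSEM 1.2.11 (its aligner: not given in the sources used here) against RefSeq genes of mm10, and deposited a TPM table by gene symbol. For their own tests the authors analysed counts with DESeq2 1.8.1; these counts were not used here. TPM keeps no depth, so depth per library is unknown from the values and no counting interval was given. Each value column carries the name of 1 sample.

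Genes with a maximum TPM above 1 were kept, as in the study, and log2(TPM + 1) was fitted for all 9 libraries together in limma 3.58.1 under R 4.3.3, with a trended eBayes step, Benjamini-Hochberg adjustment and a threshold of 0.01, after the script had been tested on simulated data. A fold change on this scale understates that of low genes. Exact permutation tests used scipy 1.17.1 in Python 3.11.15. Members given by library were the 6 cytosolic and 4 mitochondrial genes with the largest passing change against R7-I, those passing between R7-III and R7-I, and those passing against the majority of their compartment in both R7-II comparisons. Of each related list at most the 3 most abundant genes and the 1 of largest change were named, apart from those said to be named later. A related gene is not reported here. Members and lists were chosen with earlier results of these data known. Exon overlaps came from GENCODE M21 basic and promoters from RefSeq. Alternatives were other pseudocounts, filters, thresholds, scalings, spread estimates, a replicate block and leaving out each library.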

Additional observations from a re-analysis of the deposited data

How the results depend on the processing

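Cytosolic members stayed mostly lower in R7-II under every alternative run; with each library left out in turn, 14 to 16 were lower against R7-I (median −0.238 to −0.2073) and 13 to 15 against R7-III (−0.2083 to −0.1716), always with 1 higher. Mitochondrial results depended on scaling. With median-of-ratios scaling the medians against R7-I were −0.3994 (cytosolic) and −0.1256 (mitochondrial), against R7-III −0.3072 and −0.181, and between R7-III and R7-I −0.0742 and 0.0053. With quantile normalization they were −0.1888 and −0.1366, then −0.1515 and −0.2288, and −0.0139 for the mitochondrial members between R7-III and R7-I. Median-of-ratios scaling gave 0 cytosolic members higher in either R7-II comparison, turned Qars against R7-I to −0.0026, called 6 and 8 mitochondrial members lower and 1 higher against R7-III, and called 2 cytosolic members lower in R7-III than in R7-I. Quantile normalization called 0 mitochondrial members higher in any comparison, 6 and 7 lower, and 2 cytosolic members higher against R7-III. At an adjusted p of 0.05, 2 cytosolic members were higher in each R7-II comparison, 5 mitochondrial members were higher against R7-I, and between R7-III and R7-I 2 cytosolic members were lower and 4 mitochondrial members higher. With only the 2 clones compared in the fit, 1 cytosolic member was lower in R7-III. Without the trended spread or with only the 2 clones compared, Farsa and Vars against R7-I and Aars against R7-III lost their calls (adjusted p = 0.0127 to 0.018 in limma). Iars2 against R7-III did so with only those clones (0.0169), Nars against R7-III without the trend (0.0103), and Nars, Aars and Farsa in these comparisons under quantile normalization (0.0119, 0.0145 and 0.0123); Aars against R7-III also lost its call with no filter beyond a TPM above 0 (0.0112). The cause of these shifts was not tested.

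Leaving out libraries gave mitochondrial medians of 0.0318 to 0.0655 against R7-I, −0.0871 to −0.0063 against R7-III (the latter without R7-II replicate 2) and 0.0478 to 0.0871 between R7-III and R7-I, where cytosolic medians were −0.0411 to −0.0114. It gave 3 to 4 mitochondrial members higher and 2 lower against R7-I, and 1 to 3 higher and 2 to 3 lower against R7-III, with 1 higher without R7-III replicate 1 and 2 lower without R7-II replicate 2, R7-III replicate 1 or R7-III replicate 3. Between R7-III and R7-I it gave 0 to 1 mitochondrial members higher and 0 otherwise; the count was 0 also with no filter beyond a TPM above 0 and under quantile normalization.

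Same-numbered libraries did not deviate together (correlations −0.0449 to 0.0888), so the numbers were not taken as pairs. With a replicate block, Iars2 against R7-III (adjusted p = 0.0172 in limma) and Wars2 between R7-III and R7-I (adjusted p = 0.0125) lost their calls, leaving 0 mitochondrial members higher in the latter, and no other member's call changed.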
